A study of Mus musculus with 73 samples.

Results

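Rab GTPases were followed over 73 single inner hair cells of the mouse cochlea. They were taken as every gene row whose symbol is Rab, a number and at most 1 letter with 1 further number, which gave 59 of 55291 gene rows. Proteins that bind or regulate Rabs, and pseudogenes, were not members. The question of the study was what becomes of inner hair cell fate when hair cells lose Casz1, a transcription factor of the zinc-finger kind. All 73 cells form 1 group, picked by hand at postnatal day 14 from mice that were Atoh1Cre/+ and Casz1flox/flox, with Ai47 (3xGFP behind a Loxp stop at Rosa26) over an Frt-stop-Frt tdTomato allele at Rosa26, and Fgf8-Flpo/+. Atoh1 drives Cre in developing hair cells and Fgf8 drives Flp in inner hair cells, so only cells with both GFP and tdTomato were taken, and by the labels every cell carried the deletion and both reporters. The labels name no animal, litter or day of picking, so the cells counted as 1 sample without replicates, the animals cannot be told apart, and the study's wild-type cells were not analysed here. No value below is therefore a test, and none says what the deletion changed.

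Rab proteins are small GTPases that switch between a GTP-bound form on membranes and a GDP-bound form held in the cytosol. Each marks its own membranes, such as the Golgi, early endosomes or secretory vesicles, and calls in the effectors that move, tether and fuse them. Exchange factors (GEFs) load GTP, activating proteins (GAPs) speed its hydrolysis, and escort proteins carry the lipid-modified Rab between membranes. In inner hair cells such traffic supplies the ribbon synapse and the hair bundle. Slc26a5, the gene of the outer hair cell motor protein prestin, served as the readout against which each Rab was ranked over the cells.

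Levels are CPM, counts scaled to the library total, and a gene was called detected in a cell from 10 CPM upward, a level of 110 to 372 counts depending on the depth of the library. Libraries held 11027945 to 37183702 counts (median 17333640) and 6954 to 10688 genes with a count. The labelled cell type was checked against its markers: 8 of 12 general hair cell genes and 4 of 12 inner hair cell genes reached that level in every cell, and 11 and 10 of them in at least 37 cells. Of 54 markers chosen for other types of cochlear cell, 44 were found in fewer than 10 cells and 18 in none, and 22 cells held 50 CPM or more of at least 1 of these rare markers. The summed level of the rare markers ran from 0 to 7366 CPM per cell, with a median of 33.2 CPM. Reads of the targeted gene do not check the deletion, since the labels do not say which exons were removed: Casz1 ran from 0 through a median of 42.1 to 283 CPM, with medians of 38.6 CPM in the cells with Rab27b described below and 44.3 CPM in the others. Slc26a5 was detected in 51 cells and ran from 0 to 1229 CPM, with a median of 73.1 CPM.

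Of the 59 Rab genes, 52 had a count in at least 1 cell and 25 were detected in at least 37 cells. Over all 27502 gene rows with a count, non-coding ones included, 17.8% were detected in at least 37 cells. That set is unlike the Rabs in level. Of the 32 members averaging 10 CPM or more, 13 were detected in more cells than the median gene of like mean and 12 in fewer. Rab11a, Rab1a, Rab14 and Rab11b were detected in all 73 cells, as were 2.27% of all gene rows with a count and 7.25% of the 8618 genes averaging 10 CPM or more. At the other end, 7 members had no count in any cell (Rab32, Rab29, Rab9b, Rab7b, Rab17, Rab20 and Rab37), and 4 more had counts but never reached 10 CPM (Rab34, Rab30, Rab27a and Rab44). For each of these 11 genes, 0 of 73 cells allows a true share of up to 4.11% (3 of 73 cells) or of up to 4.93% (exact 95% interval), and such limits cover counting error only.

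The sequences before the start sites are shown for a Rab detected in every cell and for a pair detected in none, because these are the extremes of the family in the cells. They are the 250 bases before the most upstream RefSeq start in GRCm38.p6, with each CG dinucleotide in capitals. Rab1a lies on the plus strand (chr11:20201162-20201411, 23 CG), Rab27a on the plus strand (chr9:73044560-73044809, 14 CG) and Rab17 on the minus strand (chr1:90967668-90967917, 3 CG). In the GENCODE annotation Rab17 begins further upstream, at position 90969661, so its stretch lies inside that gene model and its start is uncertain.
Rab1a: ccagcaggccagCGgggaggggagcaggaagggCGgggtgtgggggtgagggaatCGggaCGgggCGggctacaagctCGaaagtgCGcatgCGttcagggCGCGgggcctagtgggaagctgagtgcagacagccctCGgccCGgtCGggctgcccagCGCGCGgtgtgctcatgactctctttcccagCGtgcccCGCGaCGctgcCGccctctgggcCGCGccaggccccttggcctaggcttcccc
Rab27a: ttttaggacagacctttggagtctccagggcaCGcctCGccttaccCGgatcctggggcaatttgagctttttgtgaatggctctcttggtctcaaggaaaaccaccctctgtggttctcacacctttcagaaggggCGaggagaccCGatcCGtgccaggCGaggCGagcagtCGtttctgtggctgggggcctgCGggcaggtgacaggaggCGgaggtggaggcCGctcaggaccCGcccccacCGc
Rab17: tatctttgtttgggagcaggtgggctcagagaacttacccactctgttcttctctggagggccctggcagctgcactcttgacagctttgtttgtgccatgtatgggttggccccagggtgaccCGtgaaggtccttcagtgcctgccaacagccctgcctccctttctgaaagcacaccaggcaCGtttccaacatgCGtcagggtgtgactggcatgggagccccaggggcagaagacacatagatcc

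A promoter sequence was matched for 48 of the 59 Rab genes, and CG, which reads the same on both strands, was counted in each. The 22 matched members among those detected in at least 37 cells held a median of 19 CG (range 6 to 34), and the 19 matched among those detected in 1 to 36 cells a median of 18 (range 3 to 40). The 7 matched members detected in no cell held a median of 10 (range 3 to 16). All of these, Rab27a with 14 and Rab17 with 3 included, lay within the range of the members detected in 1 to 36 cells. All gene rows detected in at least 37 cells had a median of 18, and those with no count had a median of 2. At least 10 CG stood in 81.8% of the 22, 68.4% of the 19 and 57.1% of the 7 matched Rabs, in the same order. Among all matched gene rows it was 45.5%, among those detected in at least 37 cells 82.5% and among those with no count 11.2%. These sets are not alike, since Rabs detected in no cell include genes with a few counts, such as Rab27a, and no comparison was made.

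**Figure D1:**
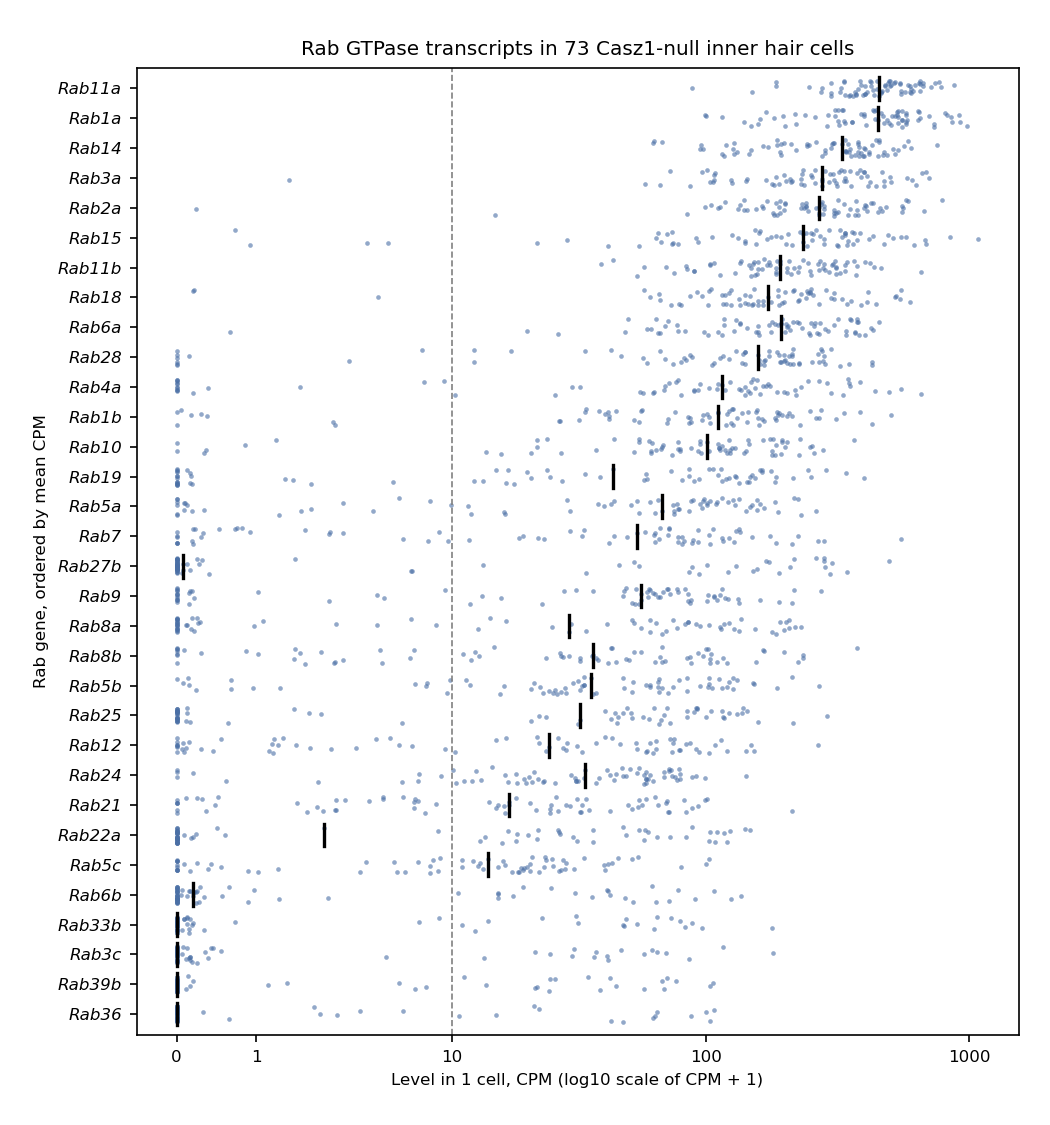
Level of each Rab gene averaging 10 CPM or more (rows, ordered by mean) in each of 73 cells (points), on a log10 axis of CPM + 1; bars are medians and the dashed line is 10 CPM. Rab11a lies between 88.2 and 879 CPM in every cell, whereas Rab27b is at 0 counts in 35 cells and at 100 CPM or more in 18.

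Most Rabs of the recycling endosome, which return membrane proteins to the surface, were found in a majority of cells. Of 6 members, 3 were detected in all cells and 5 in at least 37. Rab11a, the Rab of slow recycling, ran from 88.2 through a median of 455 to 879 CPM. Its paralog Rab11b ran from 39.4 through 192 to 656 CPM, and Rab14, of the route between early endosomes and the Golgi, from 62.5 through 330 to 758 CPM. No cell lacked any of these transcripts. Rab15, a Rab of endosomal recycling best known from neurons, was detected in 69 cells and had the highest single value of any member, with a lowest level of 0.67, a median of 235 and a highest of 1084 CPM. Rab25, an epithelial relative of Rab11, was detected in 41 cells, with a median of 32.6 and a highest level of 288 CPM. Rab35, which recycles membrane at the cell surface, was detected in 3 cells only.

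Rabs of the endoplasmic reticulum and Golgi formed the largest group, where 6 of 12 members reached 37 cells and Rab1a all 73. Rab1a, needed for transport from the endoplasmic reticulum to the Golgi, ran from 98.7 through a median of 452 to 977 CPM. Rab2a, of Golgi trafficking, ran from 0.18 through 269 to 786 CPM, and Rab6a, of transport from and within the Golgi, from 0.59 through 194 to 454 CPM. Rab2a and Rab6a each fell under detection in 1 cell. Rab18, found on the endoplasmic reticulum and lipid droplets, had a lowest level of 0.16, a median of 172 and a highest of 598 CPM. Rab1b, the paralog of Rab1a, was detected in 65 cells and had a median of 111 CPM. Rab19, a Golgi Rab, was detected in 50 cells and spread from 0 through 43.9 to 401 CPM. The Golgi Rabs Rab6b, Rab33b and Rab33a were found in 22, 18 and 12 cells, Rab2b in 11, Rab43 in 9 and Rab30 in none. Counting is not stated to use strand, and 18.99% of the exon length of Rab6a overlaps Mrpl48, 59.3% of Rab2b overlaps Gm43766 and 75.4% of Rab43 overlaps Gm45140, so these values are uncertain.

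Secretory vesicle Rabs ran from near ubiquity to absence. Rab3a, which binds synaptic vesicles and their active zone partner Rim, was detected in 72 cells and ran from 1.67 through a median of 276 to 707 CPM. None of the other 7 members reached 37 cells. Rab27b, a Rab of secretory granules and regulated exocytosis, was detected in 26 cells and Rab3c in 17, while Rab3d, Rab3b and Rab26 were detected in 5, 3 and 2. Rab27a and Rab37, both also known from secretory granules, were detected in none, and the highest level of Rab27a in any cell was 0.48 CPM.

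Early endosome Rabs were spread over several genes. Rab4a, of fast recycling, was detected in 58 cells and ran from 0 through a median of 115 to 656 CPM. The Rab5 paralogs, which drive fusion of early endosomes, were detected in 53 (Rab5a), 59 (Rab5b) and 43 cells (Rab5c), at medians of 68.02, 36.2 and 14.1 CPM. Each of these 4 transcripts was at 0 in at least 1 cell. Rab21 and Rab22a, both of endosomal sorting, were detected in 43 and 35 cells. Rab4b was detected in 10 cells although it had a count in 66, and Rab31 was detected in 2. Of the exon length of Rab4b, 64.97% overlaps Gm21983. Rab17 and Rab20, known mainly from epithelia and macrophages, had no count.

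Of the late endosome and lysosome Rabs, 4 of 10 reached detection in 37 cells or more and 4 had no count (Rab32, Rab29, Rab9b and Rab7b). Rab7, which governs late endosomes and lysosomes, was detected in 48 cells and ran from 0 through a median of 54.1 to 552 CPM. Rab9, of return from late endosomes to the Golgi, was detected in 51 cells, Rab12 in 43 and Rab24, a Rab linked to autophagy, in 63 with a median of 34.2 CPM. Rab24 shares 62.4% of its exon length with Prelid1 on the opposite strand, so its counts are uncertain. Rab38 and Rab42 were detected in 2 cells each. Rab28, found at the base of cilia, was detected in 64 cells (median 158 CPM), Rab23, a regulator of ciliary signalling, in 11, and Rab34, the other cilium Rab, in none. Rab10, which carries vesicles to the plasma membrane, was detected in 67 cells (median 101 CPM). Rab8a and Rab8b, of the same route, were detected in 41 and 50, and Rab13, of tight junctions, in 11. The 6 remaining members were rare, with Rab39b in 18 cells, Rab36 in 13, Rab40c in 10, Rab40b and Rab39 in 1 each and Rab44 in none.

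Levels between genes were compared per kilobase of exon, since full-length cDNA gives more fragments for longer transcripts. On the scale of mean CPM per kb, Rab11a came first at 156, followed by Rab2a at 135, Rab3a at 131, Rab1a at 120 and Rab4a at 81.2. Rab15 (56.7), Rab1b (56.1), Rab6a (54.5), Rab19 (49.7) and Rab11b (35.7) made up the rest of the first 10. Division by length moved Rab14 down the order, to 22.7 CPM per kb. The length used, 13589 bases, joins the exons of all its transcripts, whereas its longest single transcript has 5003 bases. The place of Rab14 in this order thus depends on the length chosen. Rab27b stood at 5.97 CPM per kb over an exon length of 10679 bases.

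Summed over the family, the Rab level was alike in most cells. The sum ran from 2453 through a median of 4170 to 5966 CPM, so the highest cell held 2.43 times the lowest. The 5 genes with the highest means supplied 44.4% of the summed mean and the first 10 supplied 69.9%. Each cell had 18 to 30 Rabs detected, with a median of 24. The sum had a rank correlation of 0.12 with Slc26a5 and of -0.33 with the mitochondrial share of counts, which ran from 1.81 to 13.0%. The part of the mitochondrial share in any value below was not tested beyond the corrected values given.

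Within paralog groups, 1 gene usually dominated. Shares were computed per cell from CPM per kb. Rab2a held a median of 100% of the Rab2 group, Rab3a 99.97% of Rab3, Rab6a 99.9% of Rab6 and Rab4a 97.1% of Rab4. Since 59.3% of the exon length of Rab2b and 64.97% of that of Rab4b overlaps another gene, the shares in the Rab2 and Rab4 groups are uncertain. Rab3a and Rab6a kept over 50% in all 73 cells, with lowest shares of 65.5% and 65.9%. Rab27b made up all of the Rab27 group in the median of the 41 cells with a count of either gene, and 99.9% of the pooled level. Rab11a held 82.1% of Rab11 (range 57.2 to 96.3), so both paralogs were present together in every cell. Without division by length its median share was 69.1%.

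The Rab1, Rab5 and Rab8 groups were shared more evenly. Rab1a held a median of 67.2% against Rab1b, but its share ran from 16.3 to 100%, and it exceeded 50% in 59 cells. Rab5a, Rab5b and Rab5c held medians of 37.6%, 34.6% and 22.2%, and each was the majority form in some cells (26, 24 and 12). Rab8a and Rab8b held 45.4% and 54.6%, with each ranging from 0 to 100% over the 71 cells with a count. In those groups the paralog with the larger measured share thus changed from cell to cell. Rab8a had no count in 18 cells and Rab8b in 7, and missed transcripts were not told apart from absent ones. The share of Rab4a had a rank correlation of 0.39 with Slc26a5, a value that rests on the uncertain counts of Rab4b. For every other paralog with a median share over 0, the correlation of its share with Slc26a5 lay between -0.40 (Rab4b, the complement of Rab4a) and 0.16.

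**Figure D2:**
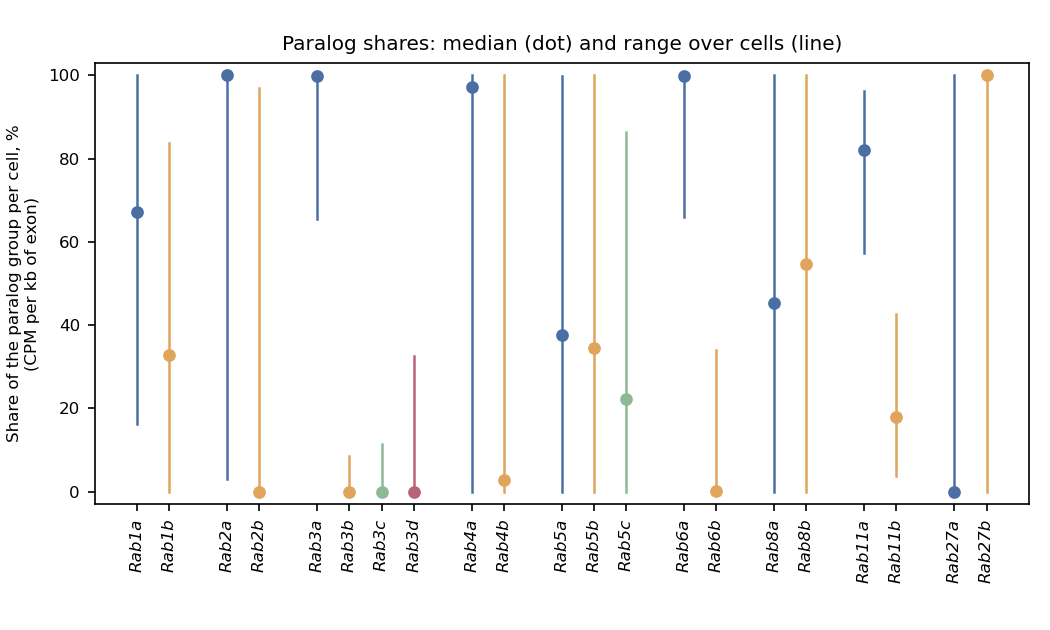
Share of each Rab paralog in the summed CPM per kb of its group, as the median (dot) and range (line) over the cells with a count for the group; colours separate paralogs within a group. Rab3a, Rab6a and Rab11a stay above 50% in every cell, while Rab8a and Rab8b each span 0 to 100%.

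Against Slc26a5, the Rab family had a median close to that of all genes. Of the 32 members averaging 10 CPM or more, 12 had a positive and 20 a negative rank correlation (Spearman, over 73 cells), and the median was -0.02. Over all 8618 genes of that mean the median was -0.03, and 43.3% were positive. Only Rab27b reached 0.5, where 1.35% of all genes did, and no member reached -0.5, where 0.87% did. At 0.3 or higher stood 2 members, Rab27b and Rab4a, or 6.25% of the 32 against 6.17% of all genes, and none stood at -0.3 or lower against 6.8%. The median size of the correlation was 0.09 for the Rabs and 0.12 for all genes. All these correlations are across cells of 1 sample that share library properties, so they are given without p-values.

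**Figure D3:**
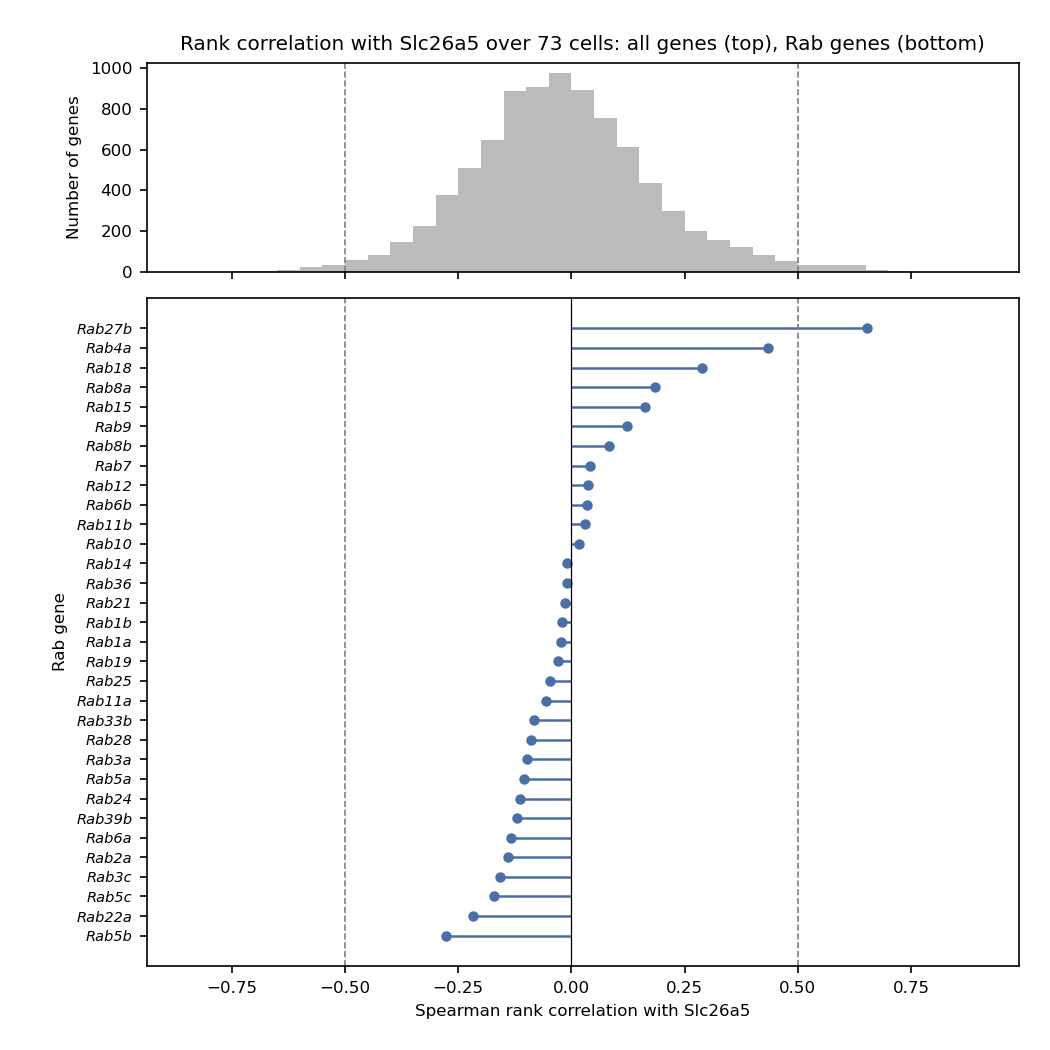
Rank correlation with Slc26a5 over 73 cells for 8618 genes averaging 10 CPM or more (histogram, top) and for the 32 Rab genes among them (points, bottom); dashed lines are at 0.5 and -0.5. Rab27b stands at 0.65 and Rab4a at 0.43, and the other 30 Rabs lie between -0.28 and 0.29.

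By role, the median correlation with Slc26a5 ran from -0.14 for early endosome Rabs to 0.08 for the Rabs from the trans-Golgi to the plasma membrane. Recycling Rabs had a median of -0.01 over 5 members, with Rab11a at -0.06, Rab14 at -0.01 and Rab15 at 0.16. Endoplasmic reticulum and Golgi Rabs had a median of -0.03 over 8, with Rab18 highest at 0.29 and Rab2a lowest at -0.14. Early endosome Rabs had a median of -0.14 over 6, and 5 of them were negative. The exception among these was Rab4a at 0.43, while Rab5b at -0.28 was the lowest of all 32 Rabs. The 3 Rabs from the trans-Golgi to the plasma membrane were positive, at 0.18 (Rab8a), 0.08 (Rab8b) and 0.02 (Rab10). Late endosome Rabs had a median of 0.04 over 4. Secretory vesicle Rabs had a median of -0.10 over 3: Rab3a stood at -0.10 and Rab3c at -0.16, and Rab27b at 0.65.

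Rab27b was present in some cells and nearly absent from the rest. In mm10 the gene occupies chromosome 18, positions 69979131 to 70141605, minus strand. It had no count in 35 cells, under 1 CPM in 9, 1 to 10 CPM in 3, 10 to 50 CPM in 3, 50 to 100 CPM in 5 and 100 CPM or more in 18. Its lowest level was 0, its median 0.06 and its highest 499 CPM, and it was detected in 35.6% of cells (exact 95% interval 24.7 to 47.7). Few cells thus lay between absence and a high level. The interval treats the cells as independent draws and covers counting error only, not differences between animals. Among 1255 genes whose mean lay near that of Rab27b (63.7 CPM), up to 79.7 CPM and down to the same factor below it, the median gene was detected in 51 cells, and 4 (0.32%) were detected in as few cells as Rab27b. These were Cnn3, Gm44618, Qpct and Rprm, named because of that count and so chosen after their values were seen.

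Cells with Rab27b lay largely within those with Slc26a5, but not the reverse. Of the 26 cells with Rab27b, 25 also had Slc26a5, while 26 other cells had Slc26a5 without Rab27b and 21 had neither. In the cells with Rab27b, Slc26a5 had a median of 452 CPM. Of 32 cells with Slc26a5 at 100 CPM or more, 21 had Rab27b and 11 did not, and 1 of those 11 held 743 CPM of Slc26a5 beside 0.19 CPM of Rab27b. Prestin transcript therefore occurred at a high level without Rab27b, and Rab27b occurred without prestin in 1 cell. Rab27b ranked 16th from the highest of 8618 genes by correlation with Slc26a5, and its correlation corrected for the mitochondrial share was 0.55. No value was corrected for the ribosomal protein share of counts, with which Slc26a5 correlated at 0.64 and Rab27b at 0.61.

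**Figure D4:**
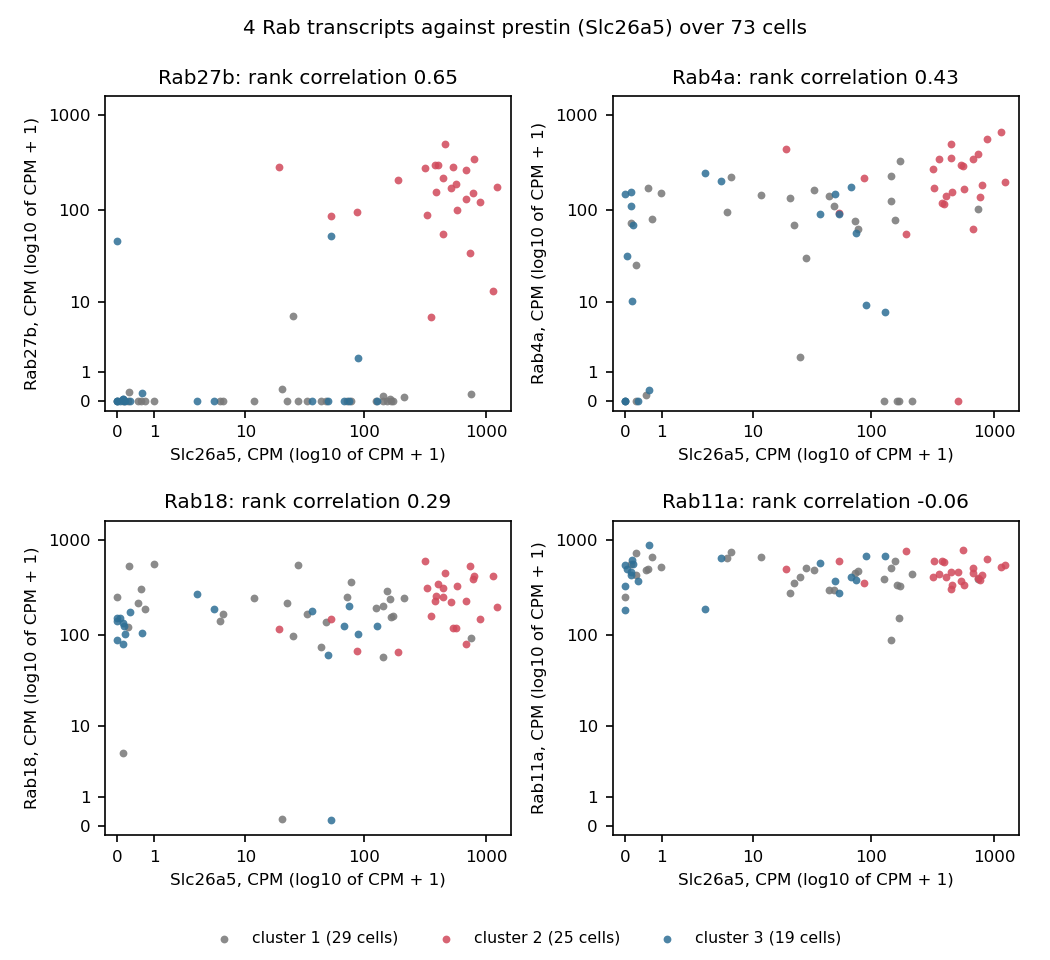
Rab27b, Rab4a, Rab18 and Rab11a (vertical axes) against Slc26a5 (horizontal axes) in 73 cells, both on log10 axes of CPM + 1, coloured by cell cluster. Of the 26 cells with Rab27b, 24 lie in cluster 2, and Rab11a stays level across the range of Slc26a5.

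The Rab27b cells nearly all fell into 1 cluster of cells. Clusters were made from 2000 variable genes, leaving out Rab genes, hair cell markers with Slc26a5 among them, sex-linked and mitochondrial genes, and gave 3 clusters of 29, 25 and 19 cells. All 3 held general, inner and outer hair cell markers (medians of 11, 9 and 7 detected in cluster 1, 11, 9 and 8 in cluster 2, and 10, 9 and 6 in cluster 3), so they were left unnamed. Rab27b was detected in 0 cells of cluster 1, 24 of cluster 2 and 2 of cluster 3, at medians of 0, 169 and 0 CPM. Slc26a5 had medians of 28.4, 458 and 0.59 CPM in the same order. Of the 26 cells outside cluster 2 in which Slc26a5 was detected, 1 had Rab27b.

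Inside the clusters the relation of Rab27b with Slc26a5 was small or negative. The rank correlation was 0.22 in cluster 1, where Rab27b never reached 10 CPM, -0.062 in cluster 2 and -0.032 in cluster 3. In clusters 1 and 3 these values rank cells that mostly lack the transcript, and membership of cluster 2 nearly coincides with detection of Rab27b, so they do not test the pooled value of 0.65. With 2 to 6 clusters under other settings, chosen after the values were seen, 1 cluster of 25 or 26 cells still held 24 or 25 of the 26 cells with Rab27b. Cluster 2 also differed in library properties, with a median mitochondrial share of 5.07% against 6.06% and 9.25%, and a ribosomal protein share of 2.01% against 1.66% and 1.45%. The animals behind the clusters are not named, so animal and cell state cannot be told apart.

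Library properties moved with Rab27b as they did with Slc26a5. Rab27b had a rank correlation of -0.46 with the mitochondrial share, 0.61 with the ribosomal protein share, -0.16 with the number of genes and 0.18 with depth. The summed hair cell lists moved with it too, at -0.74 for inner, -0.64 for general and 0.45 for outer hair cell genes. These sums weigh abundant genes most, and single members differed in sign. Calb2 stood at -0.72, but Fgf8 at 0.55 and Rprm at 0.67, all of the inner list. In the general list Cib2 stood at -0.58 and Pvalb at -0.61, but Chrna9 at 0.53 and Myo7a at -0.01. The outer list, which holds Slc26a5 itself, had Ocm at 0.42 and Car7 at -0.31. Summed markers of other cell types correlated with Rab27b at 0.48, and at 0.10 when only the 44 rare markers were summed. The glial list ran from 0 to 498 CPM in cells with Rab27b (median 167) and from 0 to 192 CPM in the others (median 1.35). Of its 8 genes, Sox10 was detected in 25 of the 26 Rab27b cells and in 2 of the other 47, whereas Mbp and Pmp22 reached 10 CPM in no cell and Fabp7 and Mal did so in 1 cell each. Cnp, of the same list, was detected in 13 of the Rab27b cells and 16 of the others. Without Sox10 the glial medians were 8.72 and 0.15 CPM. The 10 supporting cell markers, of which Prox1, Lfng and Sparcl1 were detected in no cell, had summed medians of 49.4 and 2.27 CPM (highest 1167 and 205 CPM). Summed medians in cells with and without Rab27b were 623 and 398 CPM for the 5 neuronal and 19.4 and 1.86 CPM for the 9 mesenchymal markers. Of the neuronal markers, Nefl, Snap25 and Nefm were detected in 70, 68 and 64 cells, Tubb3 in 9 and Prph in none. The 9 immune markers had summed medians of 7.22 and 0 CPM, but highest sums of 300 and 7391 CPM. Blood, endothelial and strial markers had summed medians under 1 CPM. The part of these marker lists in the level of Rab27b was not tested. Without the 22 cells that held 50 CPM of a rare marker, Rab27b was detected in 17 of 51 cells (33.3%).

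Rab4a was the other Rab above 0.3, and it was without a count in fewer cells than Rab27b. It was detected in 58 cells, where the median of 689 genes of like mean was 67 cells. Of those genes, 7.40% were detected in as few. Rab4a had no count in 10 cells and reached 100 CPM in 40. It was detected with Slc26a5 in 43 cells, without it in 15, and was missing from 8 cells with Slc26a5. Its medians in clusters 1, 2 and 3 were 78.2, 198 and 69.7 CPM, and its ranges overlapped in all 3. The pooled correlation of 0.43 was 0.33 after correction for the mitochondrial share, and it was 0.05, 0.24 and 0.18 within the clusters. Rab4a also correlated with the ribosomal protein share at 0.52 and with the mitochondrial share at -0.33. Rab18, next in rank, had medians of 189, 229 and 125 CPM in clusters 1, 2 and 3. Rab11a had nearly the same median in each (446, 455 and 461 CPM), and for Rab3a the medians were 337, 212 and 277 CPM and for Rab1a 533, 405 and 339 CPM.

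Pairs of Rabs had a median rank correlation near 0, as did pairs of all genes. Over 496 pairs of the 32 members the median rank correlation was -0.01, against 0.00 for pairs of all genes averaging 10 CPM or more. A value of 0.3 or higher was reached by 7 pairs (1.41%, against 0.997% of all pairs), and -0.3 or lower by none. The highest was that of Rab22a with Rab5b (0.42), both of the early endosome. Rab27b followed Rab4a (0.35) and Rab15 (0.35), and the other 4 pairs were Rab33b with Rab11a (0.33), Rab36 with Rab21 (0.32), Rab2a with Rab8a (0.32) and Rab1a with Rab5a (0.30). The Rab15 and Rab27b pair was 0.37 corrected for the mitochondrial share, and the Rab4a and Rab27b pair 0.24.

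The genes that regulate Rabs or act downstream of them had more negative than positive correlations with Slc26a5, as did the Rabs and all genes. Of 125 listed genes, 48 were detected in at least 37 cells and 77 had a mean of 10 CPM or more. Of those 77, 25 were positive and 52 negative, where 43.3% of all genes were positive, with a median of -0.09 against -0.03 for all genes, and of -0.06 after correction for the mitochondrial share. No gene reached 0.5, and Ric1, part of the exchange factor of Rab6, was at -0.52. At 0.3 or higher stood 5 of the 77, where 6.17% of all genes did, and at -0.3 or lower 12, where 6.8% did. The Rabs themselves, at an uncorrected median of -0.02, lay nearer to all genes than their regulators did. After correction for the mitochondrial share the medians lay closer together, at -0.05 for the Rabs, -0.03 for all genes and -0.06 for the regulators. These differences were not tested.

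Effectors had the lowest median of the larger lists, at -0.15 over 28 genes (-0.10 corrected for the mitochondrial share). Of the 28, 22 were negative and 6 positive, where 43.3% of all genes were positive. Rims2, the active zone scaffold that binds Rab3, stood at -0.48 and Dmxl2, a partner of the Rab3 regulators on synaptic vesicles, at -0.45. Rabep1 and Rufy1, effectors on early endosomes, stood at -0.37 and -0.33. The highest effectors were Rab11fip1, a Rab11 adaptor, at 0.33, Mical3 at 0.32, Rph3al, which binds Rab27 and Rab3, at 0.18 and Rilpl1 at 0.06.

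Among 17 exchange factors the median was -0.12, and -0.01 after correction for the mitochondrial share. Ric1 at -0.52, Dennd5b at -0.48, Dennd5a at -0.30 and Madd, which activates Rab3 and Rab27, at -0.24 were the lowest. Rab3ip, an exchange factor for Rab8, was highest at 0.32, and Ccz1, which with its partner activates Rab7, stood at 0.19. The 22 activating proteins had a median of -0.07, and of -0.02 after the same correction. They ran from Tbc1d9b (-0.45), Tbc1d8b (-0.34), Rab3gap2 (-0.31) and Rabgap1 (-0.27) to Rab3gap1 (0.13), Tbc1d12 (0.15), Sgsm3 (0.27) and Tbc1d15 (0.33). The subunits of the Rab3 activating complex, Rab3gap1 and Rab3gap2, thus differed in sign. Of 8 escort and prenylation genes (median -0.08), Rabggtb, a subunit of the enzyme that attaches the lipid, was highest at 0.31. Lrrk1, a kinase related to the Rab kinase Lrrk2, stood at 0.22 and the Rab phosphatase gene Ppm1h at 0.02.

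**Figure D5:**
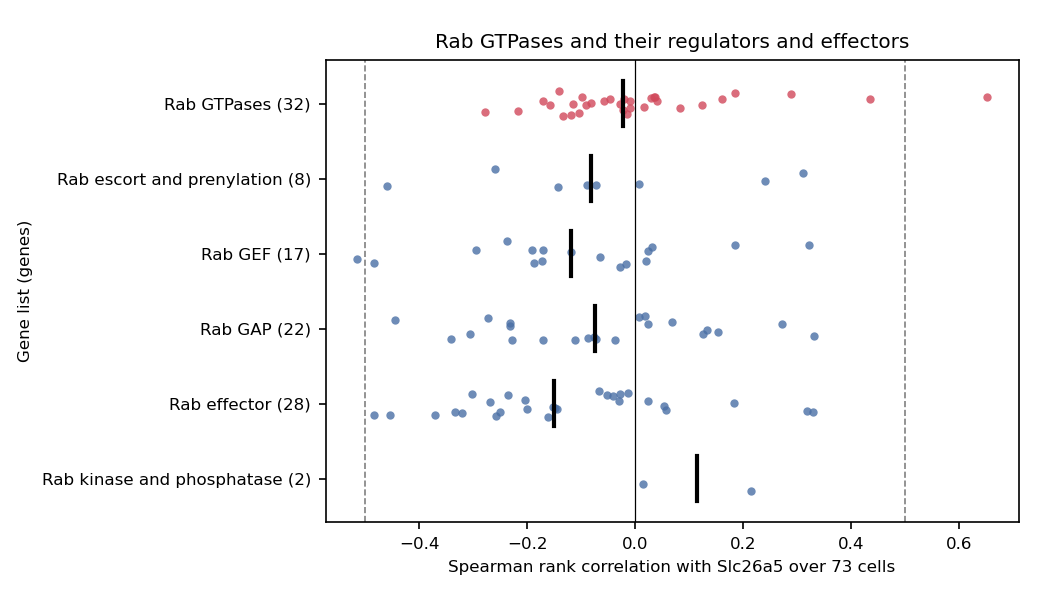
Rank correlation with Slc26a5 over 73 cells for 32 Rab genes and for the regulators and effectors averaging 10 CPM or more, by list (points, with the number of genes in brackets); bars are medians and dashed lines are at 0.5 and -0.5. Effectors have a median of -0.15 and the Rabs one of -0.02, and only Rab27b (0.65) and Ric1 (-0.52) pass the dashed lines.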

How the data were processed

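Per the labels' protocols, cochleae at postnatal day 14 were digested and cells picked by hand, and the Smart-Seq HT kit gave full-length cDNA for tagmented libraries. Without molecular identifiers, PCR copies are counted too. The values the authors deposited are whole-number read counts for each gene in each cell. Per the submitters' processing notes, the build was mm10 and the tools included featureCounts 2.0.1, HISAT2 2.2.1 and StringTie 2.2.1, without role, order or settings; which annotation they counted on is not given in these sources. Strand use is not stated either, so overlapping genes are uncertain.

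Each of the 73 columns carried a sample title. The reporter row WPRE (0.0161% of counts) was kept out of library totals, and counts were divided by those totals to give CPM, so that 1 count is worth 0.0269 to 0.0907 CPM. Positions, overlaps and exon lengths come from GENCODE vM21, which matched 53292 gene rows and all 59 members. Promoter sequences are those of RefSeq on GRCm38.p6. The last 30 bases of the stretch running past the start were found as written in a transcript of the gene for 81.1% of the genes compared, and never reversed. Correlations are Spearman values over 73 cells for genes averaging 10 CPM or more, with a version on ranks corrected for the mitochondrial share. Clusters used 15 principal components, 10 neighbours and Leiden resolution 1. Doublets were not called, since picking was by hand. The correlation step was also run on simulated counts with a planted factor. Apart from depth no library property was simulated, so that run does not bear on the part of such properties in the correlations.

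No test between groups and no count model was used, and edgeR 4.0.16 (R 4.3.3) gave only the TMM scaling of an alternative. Alternatives were other scalings, detection levels, filters, the mitochondrial correction, subsets of cells and values within clusters. The members, the gene lists and the rule for named genes were chosen with earlier results of these data known. The rule names every member by role and gives values for the 10 members highest per kb, the paralogs, the members at 0.3 or more in size, those detected in no cell, and the 4 highest and 4 lowest genes of each regulator list, of which some are not reported here. Software was scanpy 1.11.5, scipy 1.17.1, pandas 2.3.3, numpy 2.4.6 and matplotlib 3.10.9 under Python 3.11.15.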

Additional observations from a re-analysis of the deposited data

How the results depend on the processing

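In the 14 settings that used the cells pooled over clusters, Rab27b stood between 0.55 and 0.66 with Slc26a5 and Rab4a between 0.33 and 0.43, and no other Rab reached 0.5 in size. Those settings that changed only the gene filter cannot move the value of a single gene. Within clusters the values differed. For Rab27b the correlation with Slc26a5 was 0.22 in cluster 1, -0.062 in cluster 2 and -0.032 in cluster 3. The count at 0.5 or higher was 0 in clusters 1 and 2, and in cluster 3 it was again 1, but the gene was Rab1a (0.52). The count at -0.5 or lower was 1 in cluster 1 (Rab5a, -0.55). The median over the Rabs was 0.11 in cluster 3. Clusters hold 19 to 29 cells, so such values vary widely, and the cause was not tested. Detection at 50 CPM in place of 10 left 16 Rabs in at least 37 cells, against 25, by construction. When any count was enough, Rab27b was present in 52.1% of cells (38 cells), against 31.5 to 39.7% under the other settings, all chosen after seeing the data. With 1 sample and no animal named, no value carries an error between animals.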

Other observations

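Genes with a cell pattern like that of Rab27b were sought among the 8618 others averaging 10 CPM or more, a step added after the values were seen, so these names are a description of the same cells and support nothing. A rank correlation with Rab27b of 0.5 or higher was found for 151 genes and of -0.5 or lower for 83, and 48 genes ranked above Slc26a5. Pole, a DNA polymerase subunit whose gene neighbours P2rx2, came first at 0.82 and was detected in 24 of the 26 cells with Rab27b and in 4 of the other 47. Socs2, a suppressor of cytokine signalling, stood at 0.80, Sox10 at 0.78 and P2rx2, an ATP-gated channel, at 0.76. Car2, a carbonic anhydrase, and S100a1, a calcium-binding protein, stood at 0.76 each although they were detected in 60 and 73 cells. Rprm stood at 0.67 and was detected in 16 of the Rab27b cells and 1 other.

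At the other end, Osbp2 stood at -0.76 and was detected in 6 of the 26 cells with Rab27b and in all 47 others. Calb2, the calcium buffer calretinin, stood at -0.72 and Atp2a3, which pumps calcium into the endoplasmic reticulum, at -0.69.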
